A study of Mus musculus with 8 samples.

Results

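The subject here is a family of 6 genes that encode the chains of inter-alpha-trypsin inhibitor, a protease inhibitor complex of blood plasma. Ambp encodes the light chain, and Itih1, Itih2, Itih3, Itih4 and Itih5 encode heavy chains. The members were chosen by gene symbol and from measured values of this same comparison, in which Ambp was lower after Casp8 silencing while other plasma protein genes were higher. All 6 symbols were found among the 34945 named genes of the table. Because the siCasp8 against Scr contrast was used in the choice, differences of the 6 members are given as a description without a test.

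siCasp8 cultures were AML12 cells transfected with Casp8 siRNAs at 40 nM for 48 hours. Scr cultures were the same line given a scrambled siRNA at that dose and for that time. AML12 is an established hepatocyte line derived from mice transgenic for human TGF-alpha, a growth factor, and both groups share this background and the lipid transfection reagent. There were 4 libraries of poly-A RNA per group, and the series' design text calls them biological replicates of one line.

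The light chain gene Ambp makes a precursor that is cut into alpha-1-microglobulin, a heme-binding lipocalin, and bikunin, an inhibitor with a pair of Kunitz domains. Bikunin carries a chondroitin sulfate chain, and heavy chains are joined to it through an ester bond on that chain before the complex leaves the hepatocyte. Inter-alpha-trypsin inhibitor in the strict sense holds bikunin with the products of Itih1 and Itih2, and pre-alpha-inhibitor holds bikunin with that of Itih3. In inflamed tissue and around the ovulated egg, the TSG-6 protein moves heavy chains from bikunin onto hyaluronan and so stabilises matrix. The Itih4 product is an acute phase plasma protein that is not joined to bikunin, and Itih5 is known mainly from tissues outside the liver.

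The sequences just before the start sites of Ambp and Itih2 are shown because only these members had a mean value of at least 10. They differed between the groups in opposite directions. Both windows run from 250 bases before to 50 bases after the RefSeq start on GRCm38.p6, on the minus strand. The Ambp window is chr4:63154123-63154422 and the Itih2 window is chr2:10130634-10130933. Both windows lie inside the gene spans of GENCODE, whose upstream ends are at 63154799 for Ambp and 10131396 for Itih2. The RefSeq starts used here are therefore not the outermost GENCODE starts. Capitals mark matches to short words of liver factors and core promoter elements on either strand, as listed after the sequences.

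Ambp: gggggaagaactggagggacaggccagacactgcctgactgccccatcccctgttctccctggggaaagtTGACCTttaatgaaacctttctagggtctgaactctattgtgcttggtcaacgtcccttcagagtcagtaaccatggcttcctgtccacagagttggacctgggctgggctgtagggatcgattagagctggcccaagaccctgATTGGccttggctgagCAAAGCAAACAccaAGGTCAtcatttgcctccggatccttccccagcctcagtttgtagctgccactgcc

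Itih2: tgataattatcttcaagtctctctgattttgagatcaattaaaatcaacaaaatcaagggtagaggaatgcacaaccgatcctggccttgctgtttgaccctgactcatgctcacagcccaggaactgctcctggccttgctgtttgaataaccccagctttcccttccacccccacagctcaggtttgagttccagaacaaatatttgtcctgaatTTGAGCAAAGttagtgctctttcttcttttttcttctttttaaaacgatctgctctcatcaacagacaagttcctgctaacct

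Each word was searched on both strands and counted in 32851 mouse promoter windows of 300 bases. In the Ambp window, CAAAG, a word found in HNF4 sites, stood at -20 to -16 before the start, and it occurs in 53.9% of windows. The forkhead word TGTTTNC matched on the opposite strand at -16 to -10, sharing a base with CAAAG, and it occurs in 20.5% of windows. The nuclear receptor word AGGTCA matched at -6 to -1 and, on the opposite strand, at -180 to -175, and it occurs in 16.3% of windows. The word CCAAT matched on the opposite strand at -36 to -32, and 37.4% of windows hold it. In the Itih2 window, CAAAG stood at -28 to -24, overlapping a C/EBP word, TTGCNNAA, on the opposite strand at -33 to -26 that 10.8% of windows hold. The HNF1 word GTTAAT, in 7.10% of windows, and the TATA word TATAAA, in 13.6%, were not among the letters of either window. GC content was 55.0% for Ambp and 42.3% for Itih2.

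Values are the authors' normalized gene-level kallisto estimates. Their totals are nearly equal and carry no depth, so depth was estimated from the value that 1 read is worth in each library. It was 50.5 to 57.1 M reads in siCasp8 and 30.7 to 51.8 M reads in Scr (exact two-sided permutation test over 70 arrangements, p = 0.0571). Casp8, the targeted gene, encodes the initiator protease of death receptor signalling. Its values were 1374, 1431, 1627 and 1490 in siCasp8, against 3936, 3995, 4134 and 3825 in Scr, so 37.3% of the Scr level was present in siCasp8 (log2 fold change -1.43, limma adjusted p = 5.94e-09). Of 14 hepatocyte markers 11 were tested, and 6 were higher and 1 lower in siCasp8. Over all tested genes 19.4% were called higher and 20.8% lower, which holds beside each marker count here. Ahsg was at 0 in all libraries, and Apoa2 and Cps1 reached at most 0.876 and 2.38. Markers of bile duct cells other than Epcam were present, with 6 of 7 tested, 2 higher and 3 lower. Epcam reached at most 0.875 in siCasp8 and was at 0 in Scr. All 7 summed to 129229 to 136579 in siCasp8 and 114618 to 123301 in Scr, mostly from Spp1. Without Spp1 they summed to 27832 to 30046 in siCasp8 and 29403 to 31594 in Scr. Of 4 mesothelial markers 3 were tested, and 1, Upk3b, was lower, at 316 to 397 in siCasp8 and 524 to 599.9 in Scr. The most abundant, Msln, lay at 13263 to 13999 in siCasp8 and 13637 to 14089 in Scr. All 4 summed to 13656 to 14476 in siCasp8 and 14232 to 14693 in Scr. Of 6 macrophage markers 2 were tested and 1 was lower. All 6 had sums of 431 to 515 in siCasp8 and 657 to 721 in Scr that came mostly from Csf1r. The defining macrophage markers Adgre1, Clec4f and Cd5l and the endothelial markers Cdh5 and Lyve1 were at 0 in all libraries. The endothelial marker Pecam1 was present, at 175 to 298 in siCasp8 and 183 to 535 in Scr. Of 6 endothelial markers only 1 was tested, and it was not called. All 6 summed to 178 to 301 in siCasp8 and 185 to 536 in Scr. Of 8 stellate cell and fibroblast markers 2 were tested. Des was higher, at a mean of 45.3 in siCasp8 and 12.1 in Scr, and Col1a1 lower, at 77.9 in siCasp8 and 117 in Scr. All 8 summed to 94.2 to 173 in siCasp8 and 116 to 175.5 in Scr, and without Col1a1 to 29.7 to 93.8 in siCasp8 and 16.6 to 29.05 in Scr. Whether these lineage markers bear on the members was not tested. In bulk RNA, fewer cells of a type and less RNA per cell cannot be told apart.

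Ambp had values of 7254, 7738, 7965 and 8185 in siCasp8 replicates 1 to 4, against 9417, 10558, 9913 and 10579 in Scr replicates 1 to 4. All 4 siCasp8 libraries lay below every Scr library, with 1232 between the highest siCasp8 and the lowest Scr value. The mean was 7785 ± 399 in siCasp8 and 10117 ± 559 in Scr (SD, n = 4 each), so siCasp8 kept 77.0% of the Scr level. This is a difference of -0.38 on the log2(value + 1) scale (SE 0.0477), the scale of every log2 fold change given here.

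Itih2, which encodes heavy chain 2, went the other way and by more. Its values were 4554, 4776, 4436 and 4487 in siCasp8, against 1586, 1755, 1737 and 1687 in Scr. Every siCasp8 library stood at least 2682 above every Scr library, and replicates of a group lay close together (coefficient of variation 3.28% in siCasp8 and 4.47% in Scr). The mean was 4563 ± 150 in siCasp8 and 1691 ± 75.6 in Scr (SD, n = 4 each), a ratio of 2.70 and a log2 fold change of 1.43 (SE 0.0434).

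Estimated depth averaged 54.1 ± 3.33 M reads in siCasp8 and 38.1 ± 9.78 M reads in Scr (SD, n = 4 each). With depth as a covariate the log2 fold change was -0.45 for Ambp and 1.41 for Itih2.

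The remaining heavy chain genes were close to the detection limit. With a value of 0, up to 3 reads are allowed by counting error, which is a value of 2.32 to 4.42 depending on the library. All 4 had means under 10 over the 8 libraries, the minimum set for testing, and Itih5 at 9.99 and Itih4 at 9.79 lay just under it. Their siCasp8 and Scr values overlapped for each of the 4 genes.

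Itih5 had values of 11.4, 15.7, 11.996 and 10.8 in siCasp8, against 10.1, 11.8, 1.19 and 6.96 in Scr. The Scr libraries spread widely, and Scr replicate 2 exceeded 2 of the siCasp8 libraries, so the log2 fold change of 0.92 (SE 0.515) is not separated from the spread. Without Scr replicate 3 it was 0.36. Itih4 had values of 3.61, 16.5, 13.5 and 4.35 in siCasp8, against 19.3, 9.86, 8.50 and 2.76 in Scr. The groups covered the same range, with a log2 fold change of -0.08 (SE 0.579). Itih3 had values of 4.23, 2.95, 3.15 and 5.63 in siCasp8, against 2.12, 5.60, 6.61 and 12.7 in Scr. The highest value was in Scr replicate 4, and the log2 fold change was -0.48 (SE 0.465). It was -0.14 without Scr replicate 4 and -0.85 without Scr replicate 1.

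Itih1, the partner of Itih2 in the complex, was the lowest member. Its values were 0, 0.463, 8.36 and 0 in siCasp8, against 0, 1.74, 1.40 and 0 in Scr. About 10.3 reads over all siCasp8 libraries and 2.36 reads over all Scr libraries stand behind these values, and no fold change is given. The level of a heavy chain 1 mRNA was therefore not measurable at this depth, apart from the single siCasp8 library with 9.75 reads.

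**Figure D1:**
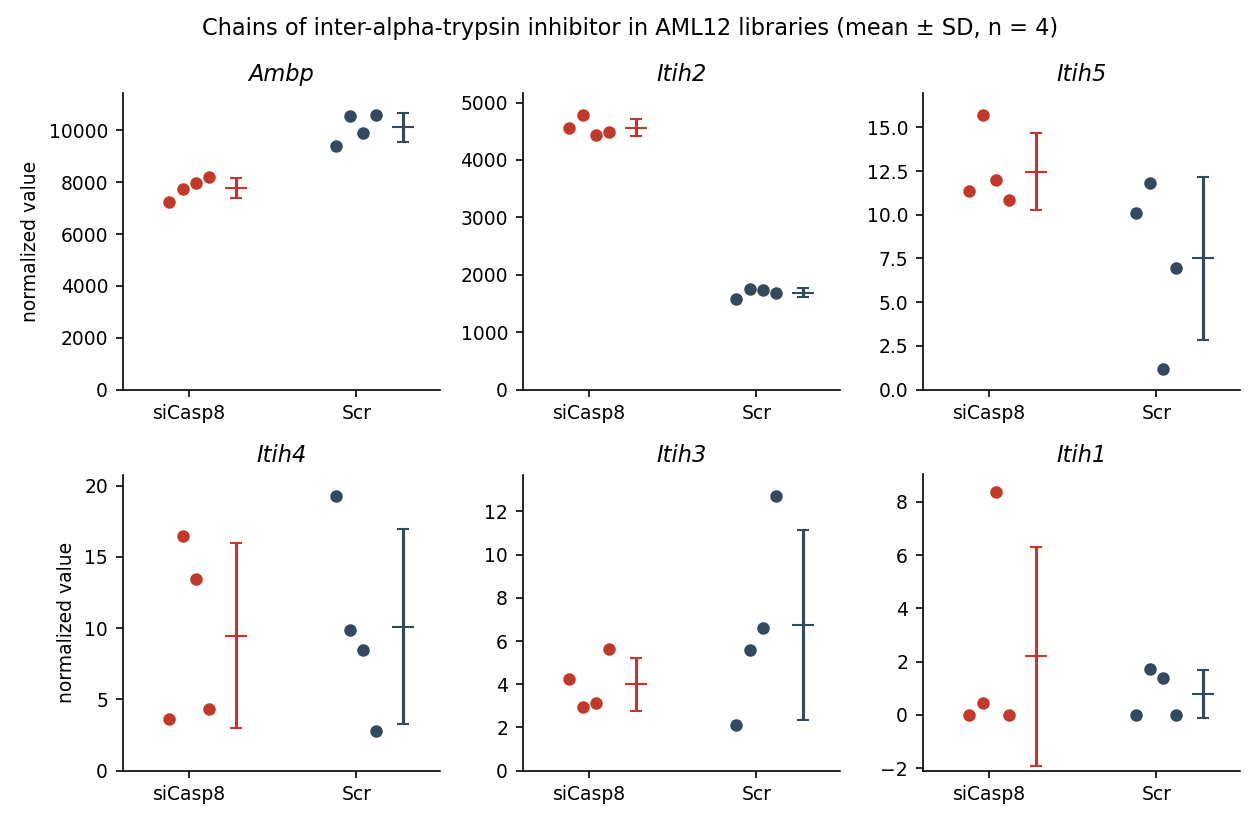
Normalized value of each member in each library (points, siCasp8 left of Scr), with the group mean and SD beside them (n = 4 each); each panel has its own axis. Ambp is lower and Itih2 higher in all 4 siCasp8 libraries, while the other heavy chain genes stay under 20 and overlap.

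Of the 6 members, 2 had groups that did not overlap, Ambp lower and Itih2 higher in siCasp8. Among all 14154 tested genes the groups did not overlap for 37.5%, and since the contrast was used to choose the members, nothing is read from their count. Only Ambp and Itih2 passed the minimum mean of 10.

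Levels were compared between members per kilobase of the longest annotated protein-coding transcript, which is 1268 bases for Ambp and 3100 for Itih2. On that scale Ambp stood at 6140 ± 314 in siCasp8 and 7979 ± 441 in Scr, and Itih2 at 1472 ± 48.2 in siCasp8 and 545.6 ± 24.4 in Scr (SD, n = 4 each). Light chain mRNA thus exceeded heavy chain 2 mRNA in both groups. Per kilobase, Itih4, Itih5, Itih3 and Itih1 averaged 2.68, 1.58, 1.33 and 0.717 in siCasp8 and 2.86, 0.950, 2.26 and 0.255 in Scr, and the order among these 4 is within their spread, with SDs of up to 1.94. Itih2 made up 99.4% to 99.7% of the summed heavy chain level per kilobase in siCasp8 libraries and 98.6% to 99.1% in Scr libraries.

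The ratio of Itih2 to Ambp per kilobase was 0.257, 0.252, 0.228 and 0.224 in siCasp8 replicates 1 to 4. In Scr replicates 1 to 4 it was 0.0689, 0.0680, 0.0717 and 0.0652. The mean ratio was 0.240 ± 0.0167 in siCasp8 and 0.0684 ± 0.00265 in Scr (SD, n = 4 each), 3.51 times as high. This ratio uses libraries' own values only, so the scaling between libraries does not enter it.

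**Figure D2:**
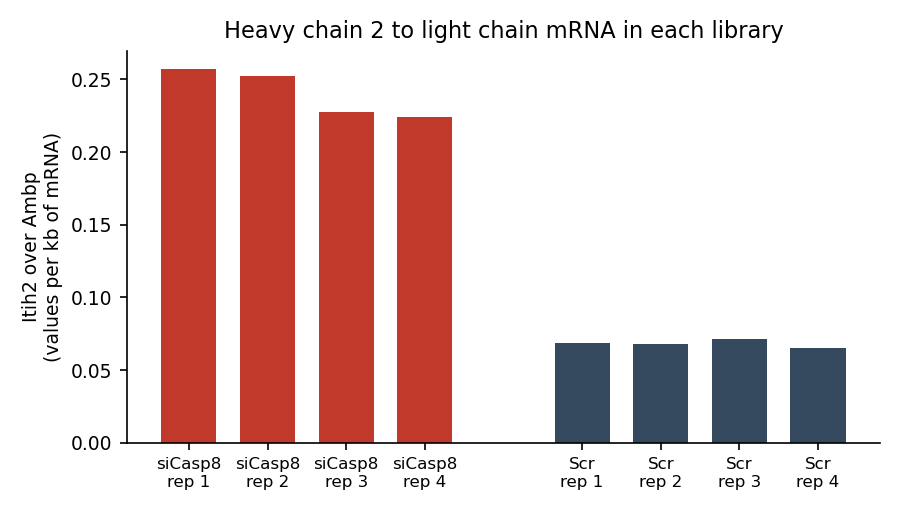
Ratio of Itih2 to Ambp in each library, each gene's normalized value divided by the length of its longest annotated mRNA in kb. The 4 siCasp8 bars lie between 0.224 and 0.257 and the 4 Scr bars between 0.0652 and 0.0717.

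The 2 abundant members were next set against other secreted plasma proteins of the liver, a class that includes albumin, transport proteins, coagulation factors and complement. Of 88 listed genes 52 had a mean of at least 10, and 35 of these were higher and 2 lower in siCasp8 by limma with Benjamini-Hochberg adjustment over all tested genes. Over all tested genes 40.2% were called, 19.4% higher and 20.8% lower. The median log2 fold change was 0.67 over the list and 0.00 over all tested genes. This list and the contrast were known before, so the count describes the setting of Ambp and is no independent support for its direction.

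Alb, the serum albumin gene, averaged 3626 ± 249 in siCasp8 and 86.4 ± 10.7 in Scr (log2 fold change 5.38). Pzp, which encodes a broad plasma protease inhibitor of the alpha-2-macroglobulin type, averaged 3101 ± 607 in siCasp8 and 39.4 ± 5.15 in Scr (6.25). The genes called lower were Masp1, which encodes a protease of the lectin pathway of complement, at 3558 ± 88.3 in siCasp8 and 5221 ± 101 in Scr (-0.55), and Apob, which encodes the structural protein of very low density lipoprotein, at 21951 ± 1579 in siCasp8 and 26046 ± 1567 in Scr (-0.25). In each of these 4 genes the siCasp8 and Scr libraries did not overlap, and the limma adjusted p was 0.00277 or smaller. The 4 were named for having the smallest adjusted p of the list in each direction, so these values are no independent support. Among all tested genes the groups did not overlap for 37.5%. Among the 52 genes 49 had a higher log2 fold change than Ambp, and 43 had a lower one than Itih2. Ambp thus stood near the low end of the class and Itih2 in its upper part.

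**Figure D3:**
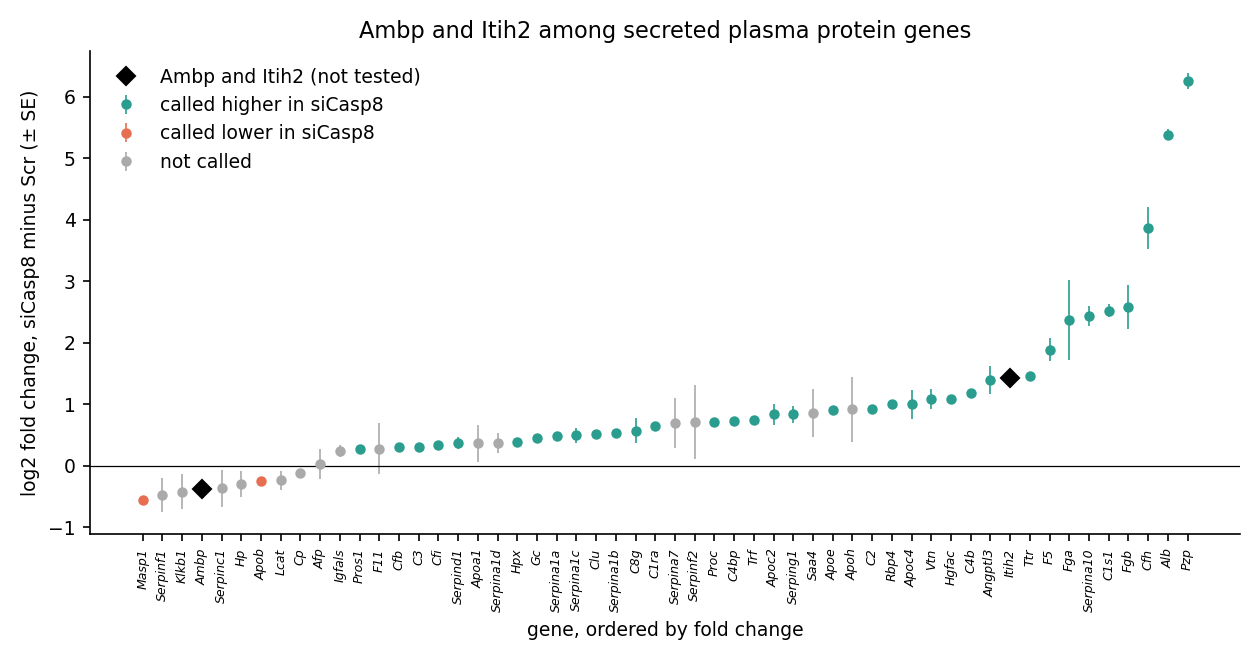
Log2 fold change (siCasp8 minus Scr, with SE) of the 52 tested secreted plasma protein genes, and of Ambp and Itih2 as black diamonds, in order of fold change. Ambp at -0.38 has 3 of the 52 genes below it, and Itih2 at 1.43 has 9 above it.

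By level per kilobase, Ambp ranked 7 of 54 in siCasp8 and 4 of 54 in Scr among these genes and the 2 members. In siCasp8 the genes next to it were Cfi, which encodes complement factor I, at 6696 ± 205 and the thyroid hormone carrier gene Ttr at 5777 ± 150. In Scr they were the copper oxidase gene Cp at 9654 ± 595 and the transferrin gene Trf at 6622 ± 142. Itih2 ranked 18 of 54 in siCasp8, between Apob at 1575 ± 113 and Serpina1b at 1281 ± 84.7. In Scr it ranked 20 of 54, between Pros1 at 635 ± 16.7 and Hgfac at 429 ± 24.8. The intervals of mean ± SD of Itih2 and Apob met in siCasp8, as did none of the other pairs named here except Ambp with Ttr in siCasp8. Among all 13203 tested genes with an annotated length, 2.56% exceeded Ambp in siCasp8 and 2.01% in Scr, while 16.5% exceeded Itih2 in siCasp8 and 42.0% in Scr.

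The 3 genes whose profile over the 8 libraries was closest to that of Ambp were found by the root mean square distance of centred log2(value + 1) values, among 11308 genes with a mean of at least 50. They were Col27a1, which encodes a fibrillar collagen of cartilage (distance 0.0394), the retinol transporter gene Stra6 (0.0399) and the taurine transporter gene Slc6a6 (0.0409). Col27a1 averaged 6956 ± 308 in siCasp8 and 8954 ± 540 in Scr. For Itih2 the closest profiles were those of Ttr (0.0451), the cytochrome P450 gene Cyp2c68 (0.0661) and the glucuronosyltransferase gene Ugt2b34 (0.0876). Ttr averaged 6852 ± 178 in siCasp8 and 2495 ± 176 in Scr. These distances rest on 2 groups of 4 libraries and carry no test.

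The members lie in 3 places of the genome (GENCODE M21, GRCm38). Ambp occupies chromosome 4, positions 63143275 to 63154799, minus strand. Itih2 occupies chromosome 2, positions 10094593 to 10131396, minus strand, and Itih5 starts 22174 bases away, from 10153571 to 10256529 on the plus strand. The genes Itih4 (30886476 to 30902353, plus strand), Itih3 (30908572 to 30923760, minus strand) and Itih1 (30929180 to 30943289, minus strand) fill 56814 bases of chromosome 14.

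Of the 18 protein-coding genes next to these places, 3 on each side, 15 were tested, and 1 was called higher and 1 lower by limma. Among all tested genes 19.4% were called higher and 20.8% lower. The split was 2 higher and 1 lower with upper quartile scaling, quantile normalization, no trend or the replicate block. It was the same without siCasp8 replicate 1 or without Scr replicate 1, 2 or 3. The gene called lower was Col27a1, 59205 bases from Ambp and the same gene whose profile was closest to it (log2 fold change -0.36, SE 0.0470, limma adjusted p = 6.33e-05, lower in 4 of 4 siCasp8 libraries). Between the pair lies the kinesin gene Kif12, at 3335 ± 184 in siCasp8 and 3479 ± 143 in Scr, which was not called (-0.06, limma adjusted p = 0.324). On the other side of Ambp, Zfp618, a zinc finger gene, averaged 5902 ± 553 in siCasp8 and 4837 ± 1818 in Scr and was not called (0.35, limma adjusted p = 0.143), but without Scr replicate 2 it was called higher (0.58, adjusted p = 0.000113). The acute phase gene Orm1, beyond Col27a1, was under the minimum mean.

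Around Itih2 the gene called higher was Atp5c1, which encodes a subunit of the mitochondrial ATP synthase, at 9459 ± 4.88 in siCasp8 and 8593 ± 189 in Scr (log2 fold change 0.14, limma adjusted p = 0.00279). That call was lost with estimated depth as a covariate. Kin, which lies 1787 bases from Itih2, averaged 1043 ± 47.5 in siCasp8 and 1066 ± 77.3 in Scr and was not called (-0.03, limma adjusted p = 0.746). Beyond Itih5, Sfmbt2 averaged 0.196 ± 0.392 in siCasp8 and was at 0 in Scr. On chromosome 14, Nek4, next to Itih1, averaged 2292 ± 109 in siCasp8 and 2107 ± 67.4 in Scr (0.12, limma adjusted p = 0.0511), and was called under 5 of the 15 alternative settings. Mustn1, next to Itih4, averaged 11.5 ± 2.77 in siCasp8 and 13.7 ± 8.27 in Scr.

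**Figure D4:**
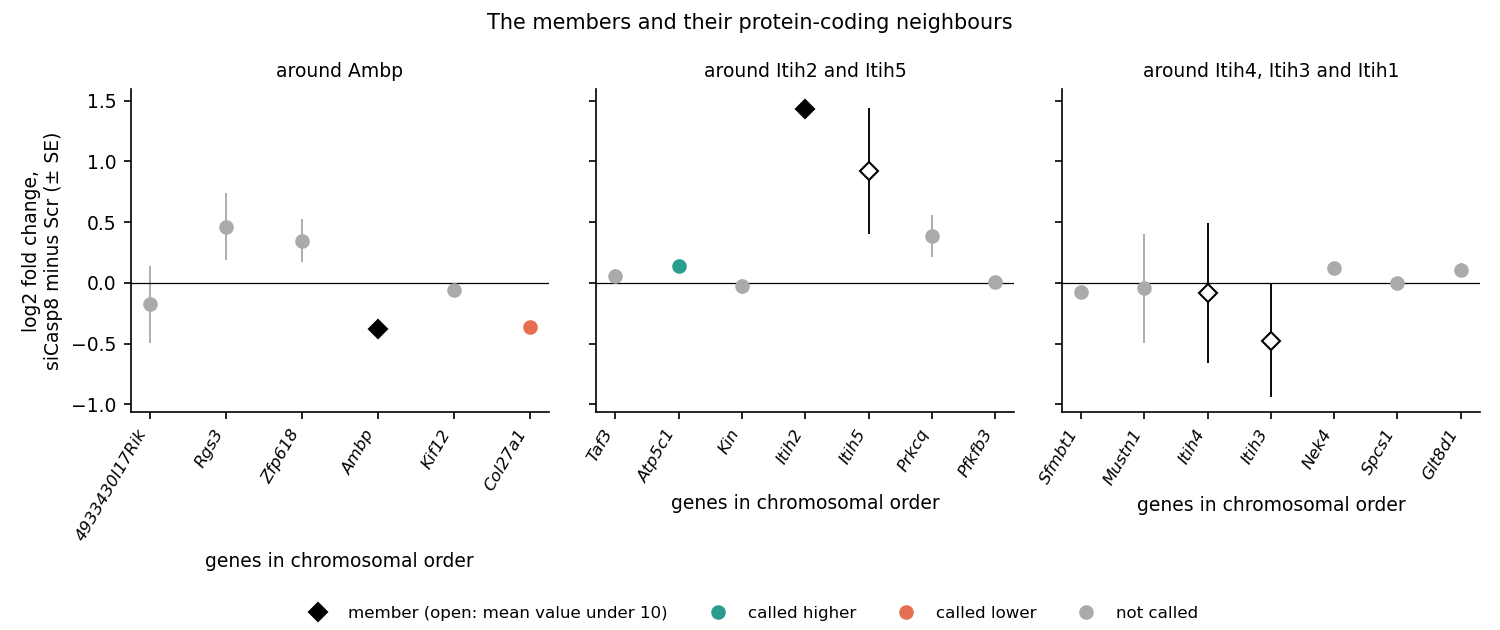
Log2 fold change (siCasp8 minus Scr, with SE) of the members and of their tested protein-coding neighbours, in chromosomal order; Itih1 is not drawn because its reads were too few. Itih2 stands at 1.43 while Kin and Atp5c1 stand at -0.03 and 0.14, and Col27a1 at -0.36 lies near Ambp at -0.38.

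Bikunin needs a chondroitin sulfate chain to carry heavy chains. Of 22 listed genes that build such chains 19 were tested, and 4 were higher and 2 lower (31.6% called, against 40.2% of all tested genes); the median log2 difference was 0.10. The linker enzyme genes B3gat3 and B4galt7 rose, to 3490 ± 164 in siCasp8 against 2977 ± 198 in Scr (0.23) and to 1295 ± 47.8 in siCasp8 against 1126 ± 58.7 in Scr (0.20). Chst15, which encodes a chondroitin sulfotransferase, fell to 1825 ± 93.2 in siCasp8 against 2271 ± 184 in Scr (-0.31), and the chain polymerase gene Chsy1 fell to 1526 ± 13.3 in siCasp8 against 1741 ± 60.3 in Scr (-0.19). With limma these 4 had adjusted p no larger than 0.00865, but B3gat3, Chst15 and Chsy1 were not called with the depth covariate. Chst12 and Chst13, which encode 4-sulfotransferases, were not called (limma adjusted p = 0.692 and 0.691).

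Proprotein convertases cut secreted precursors at basic sites, and the precursor of Ambp is cut at such a site. Of 7 listed genes 6 were tested, none was higher and 4 were lower, against 20.8% lower among all tested genes. With the depth covariate 2 genes of the list were called, both lower. Under that setting 1289 of all 14154 tested genes were called higher and 1475 lower. Without the covariate the median log2 difference of the list was -0.23. Mbtps1, which encodes the site-1 protease, fell to 7540 ± 283 in siCasp8 against 9213 ± 125 in Scr (-0.29). It had a limma adjusted p of 3.29e-05 and was lower in 4 of 4 siCasp8 libraries. Furin, the broadly expressed convertase of the Golgi, averaged 12930 ± 494 in siCasp8 and 14598 ± 990 in Scr (-0.17, limma adjusted p = 0.0116).

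Of 27 listed genes of hyaluronan and of heavy chain transfer 17 were tested, 4 higher and 3 lower. The share called, 41.2%, was close to the 40.2% of all tested genes, and the median log2 fold change was 0.08. Hmmr, which encodes a hyaluronan-binding protein of the mitotic spindle, fell to 738 ± 54.5 in siCasp8 against 1670 ± 164 in Scr (-1.17), and Cemip, which encodes a hyaluronan-degrading protein, fell to 28.8 ± 9.96 in siCasp8 against 59.0 ± 5.41 in Scr (-1.06). The lysosomal hexosaminidase gene Hexa rose to 5437 ± 129 in siCasp8 against 4105 ± 216 in Scr (0.41). For these 3 the limma adjusted p was 0.0032 or smaller, and the Cemip call was lost with the depth covariate. Tnfaip6, the gene of TSG-6, stayed between 1.57 and 7.91 in siCasp8 and between 4.31 and 11.8 in Scr. The hyaluronan synthase gene Has1 was at 0 in every library. Has3, another synthase gene, was present, at 172 ± 9.73 in siCasp8 and 161 ± 12.2 in Scr, and was not called (0.10, limma adjusted p = 0.486). The hyaluronan receptor gene Cd44 was abundant, at 18979 ± 255 in siCasp8 and 18998 ± 192 in Scr, and was not called (log2 fold change 0.00, limma adjusted p = 0.973).

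Liver transcription factors bind enhancers and promoters of plasma protein genes. All 14 listed genes were tested, 6 higher and 2 lower (57.1% called, against 40.2% of all tested genes). Their median log2 fold change was 0.22. With upper quartile scaling the split was 7 higher to 1 lower, and with quantile normalization 8 to 1. These settings moved the whole table the same way, from 2739 higher and 2950 lower. Upper quartile scaling called 3148 genes higher and 2535 lower, and quantile normalization 2968 higher and 2672 lower. The forkhead genes Foxa3 and Foxa1 moved apart, Foxa3 to 635 ± 24.8 in siCasp8 against 387 ± 10.4 in Scr (0.71) and Foxa1 to 1119 ± 85.9 in siCasp8 against 1726 ± 35.0 in Scr (-0.63). The homeobox gene Onecut2 rose to 23391 ± 685 in siCasp8 against 17463 ± 866 in Scr (0.42). For these 3 genes the limma adjusted p was 4.58e-06 or smaller. Hnf4a, the nuclear receptor gene of hepatocyte identity, averaged 6944 ± 106 in siCasp8 and 6535 ± 430 in Scr and was not called (0.09, limma adjusted p = 0.132).

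Genes whose proteins share a domain with the chains were counted too. Of 18 listed Kunitz domain relatives of bikunin 7 were tested, with 2 higher, 1 lower and a median log2 fold change of 0.15. The share called, 42.9%, was close to the 40.2% of all tested genes. Spint2, which encodes a membrane inhibitor of serine proteases, rose to 7326 ± 120 in siCasp8 against 6256 ± 330 in Scr (0.23). Aplp2 rose by 0.15 and App, the amyloid precursor gene, fell by 0.14 on the log2 scale, and neither was called once depth was a covariate. With limma all 3 had adjusted p of at most 0.00783.

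Of 20 listed lipocalin relatives of alpha-1-microglobulin 4 were tested, with 2 higher, 1 lower and a median log2 fold change of 0.19. The share called was 75.0% of these 4, against 40.2% of all tested genes. The 2 called higher, Rbp4 and C8g, are also in the list of secreted plasma proteins and were already counted there. With quantile normalization 1 was higher and 1 lower. The retinol carrier gene Rbp4 rose to 11977 ± 516 in siCasp8 against 6002 ± 208 in Scr (1.00), and Ptgds, which encodes the lipocalin-type prostaglandin D synthase, fell to 931 ± 74.6 in siCasp8 against 1712 ± 57.0 in Scr (-0.88). For both the limma adjusted p was 3.69e-07 or smaller. C8g, which encodes the gamma chain of complement component 8, averaged 53.6 ± 5.63 in siCasp8 and 36.5 ± 8.36 in Scr (0.57, limma adjusted p = 0.0421), and lost its call under 9 of 15 alternative settings. Of the relatives of the heavy chains through VIT and VWA domains 3 of 5 were tested, and 1 (33.3%) was called, higher in siCasp8. It was Vwa5a, at 9852 ± 200 in siCasp8 and 7987 ± 217 in Scr (0.30, limma adjusted p = 1.51e-05).

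**Figure D5:**
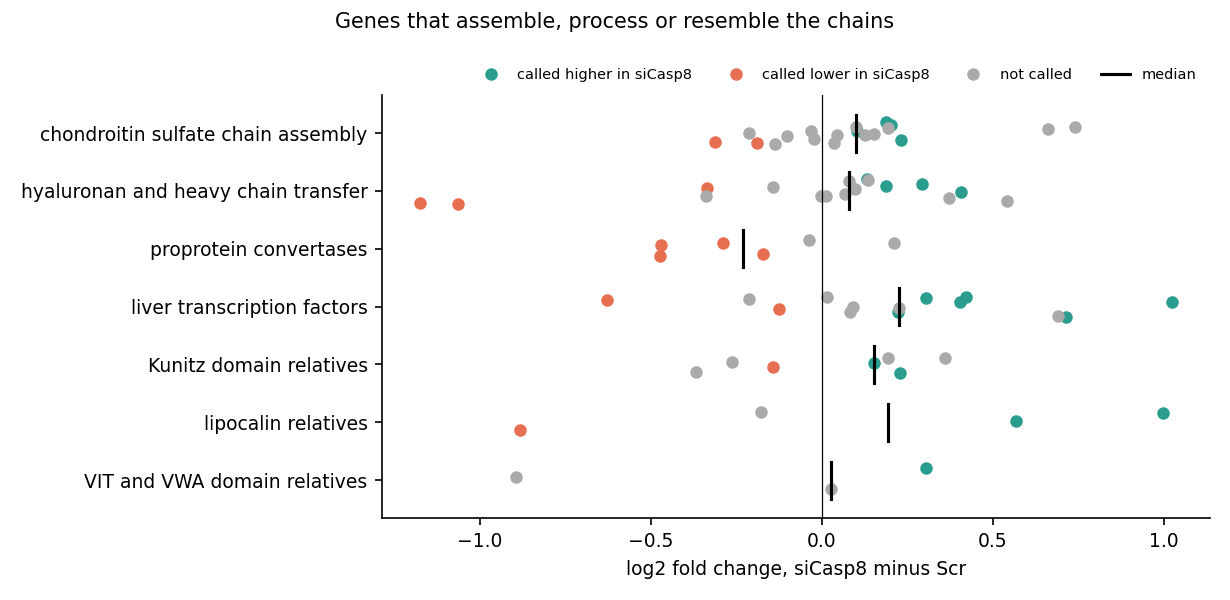
Log2 fold change (siCasp8 minus Scr) of the tested genes of 7 lists, with the median of each list as a bar and colours for calls by limma at an adjusted p under 0.05. Points are shifted up or down at random for legibility. Medians lie between -0.23 for proprotein convertases and 0.22 for liver transcription factors.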

How the data were processed

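Poly-A RNA of 8 AML12 libraries, 4 siCasp8 and 4 Scr, was measured by RNA-seq, with groups taken from the titles. Per the submitters' processing notes, bcl2fastq 2.19, kallisto 0.44.0, sleuth and DESeq2 were used with the builds GRCh38 and GRCm38, without a stated role or order. The authors deposited 1 table of a normalized signal per gene symbol, which per the file name is kallisto estimates scaled with DESeq2; its annotation is not given in the sources used here. A row without a symbol made up 0.0481% to 0.0631% of a library and stayed out.

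The value of 1 read was taken as the most frequent low value of a library. Only 63.0% to 75.0% of low values came within 0.1 read of a whole number, so reads could not be recovered and no count model was used. Intervals and floors cover counting error only. Genes with a mean of at least 10 (14154) were tested in R 4.3.3 with limma 3.58.1 on log2(value + 1), with limma-trend, no covariate and Benjamini-Hochberg adjustment, two-sided, called at an adjusted p under 0.05. Standard errors of the other 4 members came from the same fit over all genes above 0. This scale understates changes of low genes. The fit was tested on simulated data. The series calls the libraries biological replicates of one line, so p-values measure the spread between cultures.

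The members and gene lists were chosen with earlier results of these data known. Named genes were every member, Casp8, per list and direction the 2 called genes of smallest adjusted p, the nearest neighbour on each side and the 3 closest profiles per tested member; a few others were named after their values were seen. Some genes that this rule names are not reported here. Promoter windows came from RefSeq (GRCm38.p6), where all 6 members matched, and positions from GENCODE M21. The alternatives were another pseudocount, no filter, 2 rescalings, no trend, a replicate block, a depth covariate and leaving out each library.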

Additional observations from a re-analysis of the deposited data

Results flagged for a closer look

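Among 86 groups of 4 values looked at (43 genes in each treatment), 8 had a library that stood apart from the other 3, where chance gives about 1 in 20. Of the members this was so for Itih1, at 8.36 in siCasp8 replicate 3, where the next highest siCasp8 value was 0.463. Apob stood at 24314 in siCasp8 replicate 1, above 21305 in the next library. Foxa1 stood at 992 in siCasp8 replicate 1, below 1146 in the next. Hmmr stood at 819 in siCasp8 replicate 3, above 716. In Scr, Masp1 stood at 5371 in replicate 2, above 5185, and Pzp at 31.8 in replicate 3, below 41.4. In Scr replicate 2, Spint2 stood at 6750, above 6124, and Zfp618 at 7536, above 4268.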

How the results depend on the processing

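Ambp kept a negative and Itih2 a positive log2 fold change under all 15 alternative settings, between -0.45 and -0.32 for Ambp and between 1.40 and 1.46 for Itih2. With estimated depth as a covariate, 2764 genes were called over the whole table against 5689 without it. The called genes were then 1 for chondroitin sulfate chain assembly, 4 for hyaluronan and heavy chain transfer, 1 for Kunitz domain relatives, 2 for proprotein convertases and 1 for neighbouring genes, against 6, 7, 3, 4 and 2. With this covariate the standard error of App rose from 0.0368 to 0.0599, while its log2 fold change stayed at -0.14. For Cemip the standard error rose from 0.236 to 0.386, with log2 fold changes of -1.06 and -1.03. Chst15 went from -0.31 (SE 0.0605) to -0.22 (SE 0.0918). The same covariate moved the log2 fold change of Itih3 to -1.57 and that of Itih4 to 1.15, and the cause was not tested. Leaving out 1 library at a time gave -0.080 to 0.0042 for Kin and -0.45 to 0.26 for Mustn1, neither of them called. It gave -0.53 to 0.28 for Itih4, so the direction of that member rests on single libraries. The replicate block, by the numbers in the titles, called 6020 genes. Same-numbered libraries had correlated deviations from their group means of 0.0442 to 0.169, each siCasp8 library correlating best with its own number, which is a hint from the data and not from the design. Depth limits Itih1, Itih3, Itih4 and Itih5, which had at most 21.0 reads in any library.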
